A study of Mus musculus with 4 samples.

Results

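The genes described here are those of the cornified envelope and of epidermal differentiation, measured in mouse cells that were reprogrammed to induced pluripotent stem cells (iPSCs) and then differentiated toward endothelium. The cornified envelope is the layer of cross-linked protein that replaces the membrane of a dying keratinocyte. Members were taken by name: every probe set whose only gene symbol begins with Sprr, Lce or S100a, together with those of 19 listed genes, all of which were on the array. This gave 74 probe sets of 55 genes, out of 34945 probe sets with 1 symbol and 18193 genes. A further 4 probe sets carry a member's name beside other symbols and were left out.

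The study set cells from healthy control mice against cells from mice with diet-induced obesity (DIO), with 2 mice and 2 arrays in each group. The mice were 24 weeks old, the differentiated cells were kept in an endothelial medium and released with trypsin, and biotin-labelled RNA went onto Affymetrix mouse arrays, per the labels. The titles name the cells as endothelial cells from iPSCs, while the cell type entry reads iPSC. Strain, sex, diet and the number of iPSC lines made from each mouse are not given in the labels, so the p-values measure the spread between these 4 samples, which may in part be technical. Each array takes the mouse number of its title (control 1 and control 2, DIO 1 and DIO 2), a number that gives no order.

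The values are log2 expression levels, and a difference of 1 is a factor of 2 in signal. No detection calls were used here, so a reference for silent genes was taken from 71 olfactory and vomeronasal receptor genes, which are not known to be active in endothelial or epithelial cells. Their 95th percentile was at 4.66, 4.82, 4.94 and 4.89 in control 1, control 2, DIO 1 and DIO 2. The medians over all probe sets lay between 5.61 and 5.65. Of 16 endothelial markers, between 9 and 12 lay above the reference on an array. Cdh5, the vascular cadherin, was at 8.37 to 9.34, while Emcn, Erg, Fli1 and Tie1 lay below the reference on every array. The 8 simple epithelial markers, Krt8 and Krt18 among them, were above it on all arrays, with medians from 12.33 to 12.56. All 10 pluripotency markers were above it on all arrays too, with medians from 8.78 to 9.91 and Pou5f1, which encodes the stem cell factor Oct4, at 9.96 to 11.79.

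In skin, basal keratinocytes depend on the transcription factor p63, and as they move outward they first make scaffold and suprabasal proteins and later the bulk of the envelope. Involucrin, envoplakin and periplakin are laid down first under the membrane. Loricrin, the small proline-rich (Sprr) proteins and the late cornified envelope (Lce) proteins are then cross-linked onto them by transglutaminases. Many of these genes sit side by side in the epidermal differentiation complex, on mouse chromosome 3, where 41 of the 55 members lie. The members were accordingly read in 5 classes: 9 early genes, 22 late genes, 9 Sprr genes, 12 S100A genes and 3 transcription factors.

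The members differed far more between the 2 control arrays than between the groups. Their median difference was 4.30 for control 2 minus control 1 and −0.39 for DIO minus control. For DIO 2 minus DIO 1 it was 0.64. Control 2 was the highest of the 4 arrays for 47 of 55 members, where 21% of all genes were highest there. Control 1 was the lowest for 46, against 21.4% of all genes. For 41 members the arrays stood in the order control 1, DIO 1, DIO 2, control 2, which held for 4.47% of all genes. The median level of the members was 5.22 in control 1, 10.50 in control 2, 6.64 in DIO 1 and 7.77 in DIO 2. Above the olfactory reference were 36 members in control 1, 50 in control 2, 45 in DIO 1 and 47 in DIO 2. The 5 that stayed below it on all arrays were Lce1l, Sprr2f, S100a3, S100a5 and S100a7l2. In cells measured in bulk, fewer cells of a type and less RNA per cell cannot be told apart.

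**Figure D1:**
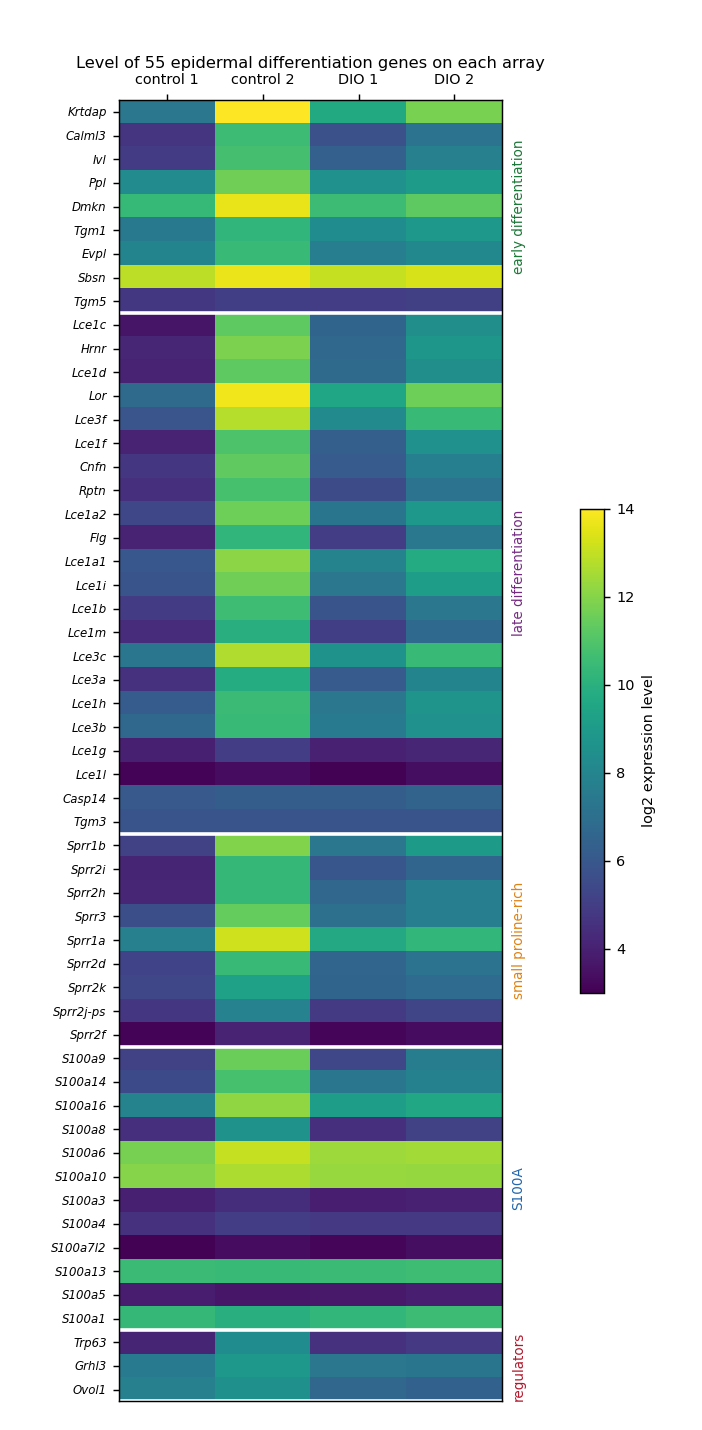
Level of each of the 55 members on each of the 4 arrays, as log2 expression level by colour, grouped by class and ordered within a class by the difference between the 2 controls. Control 2 is brightest for 47 of the 55 genes, and most genes of the late class run from dark in control 1 through DIO 1 and DIO 2 to control 2.

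The distance between the 2 control arrays was large for single genes. Control 2 exceeded control 1 by 1 or more for 41 of 55 members (4.59% of all genes), and by 5 or more for 27 (0.423% of all genes). No member was lower in control 2 by 1 or more (1.81% of all genes). The median difference was 4.30 over members and −0.09 over all genes. Between the DIO arrays the distance was smaller: DIO 2 exceeded DIO 1 for 50 members (48.1% of all genes) and by 1 or more for 24 (0.473% of all genes), with a median of 0.64. None was lower in DIO 2 by 1 or more (0.77% of all genes). Without the dimmest 40% of genes, which left 43 members, that median was 1.32. With 1 array on each side, these differences have no test.

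Members that stood far apart in the controls also stood far apart in the DIO pair, and these pairs share no array. Across the 55 members, Pearson's r between the pair differences was 0.86 and Spearman's rho 0.88, against 0.33 and 0.20 across all 18193 genes. These are descriptions across genes of the same arrays, which are not independent of one another, and the sign of r rests on which mouse carries the number 2.

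**Figure D2:**
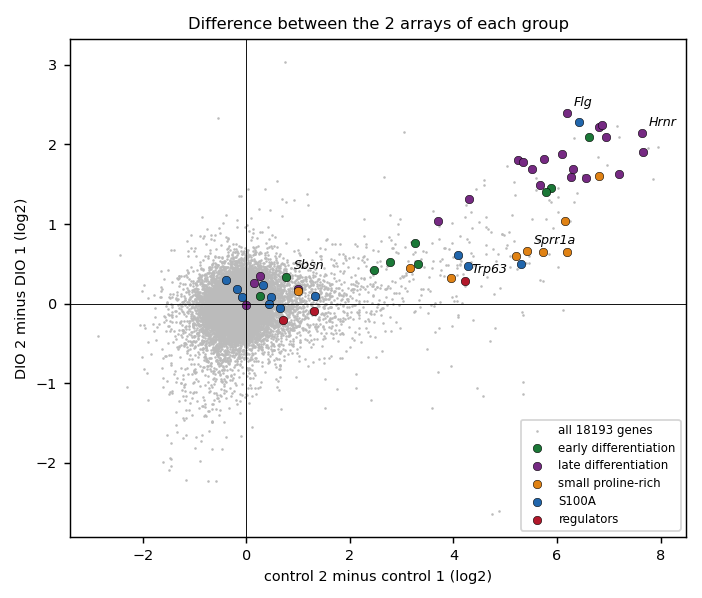
Difference between the 2 arrays of each group for all 18193 genes (grey) and the 55 members (coloured by class), with control 2 minus control 1 on the x axis and DIO 2 minus DIO 1 on the y axis, both in log2 units. Late genes lie at the upper right, up to 7.65 and 2.39, while Sprr and S100A genes with similar control differences mostly lie lower.

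The stretch before the transcription start was read for the members, since so many stood in 1 order over the arrays. RefSeq promoters (GRCm38.p6, 250 bases before to 50 bases after the start) were matched for 46 of 55 members. Each motif was searched on both strands. The AP-1 site is TGACTCA, which reads on the opposite strand as TGAGTCA. The TATA box was searched as TATAAA. For the factor C/EBP the search used the letters TTGCNNAA. AP-1 is the dimer of Fos and Jun proteins, long studied at keratinocyte promoters. Both AP-1 and TATA letters were found for 10 members. Of these, 4 are printed because their genes stood far apart between the controls, a choice made with those values known: Krtdap at chr7:30787655-30787954 (plus strand), Lor at chr3:92083093-92083392 (minus strand), Ivl at chr3:92573686-92573985 (minus strand) and Sprr1a at chr3:92485832-92486131 (minus strand). They run 5′ to 3′ along the gene's strand, with the AP-1 and TATA matches in capitals.
Krtdap: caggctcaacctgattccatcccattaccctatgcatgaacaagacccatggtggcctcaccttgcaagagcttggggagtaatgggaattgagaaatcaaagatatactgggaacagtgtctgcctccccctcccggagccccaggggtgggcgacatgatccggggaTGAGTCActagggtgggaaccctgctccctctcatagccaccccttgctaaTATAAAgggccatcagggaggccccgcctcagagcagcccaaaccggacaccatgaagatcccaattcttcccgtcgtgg
Lor: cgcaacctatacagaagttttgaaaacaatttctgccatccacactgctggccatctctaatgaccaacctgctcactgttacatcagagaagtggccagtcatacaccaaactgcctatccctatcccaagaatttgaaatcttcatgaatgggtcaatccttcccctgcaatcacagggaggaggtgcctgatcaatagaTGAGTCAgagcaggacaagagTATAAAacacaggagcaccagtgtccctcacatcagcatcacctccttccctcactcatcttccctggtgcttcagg
Ivl: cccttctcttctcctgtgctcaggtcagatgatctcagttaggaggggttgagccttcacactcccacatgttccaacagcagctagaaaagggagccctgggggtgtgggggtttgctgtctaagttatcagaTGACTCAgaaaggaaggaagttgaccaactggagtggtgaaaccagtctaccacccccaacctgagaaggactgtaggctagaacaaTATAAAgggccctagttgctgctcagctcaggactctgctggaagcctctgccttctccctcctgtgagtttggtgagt
Sprr1a: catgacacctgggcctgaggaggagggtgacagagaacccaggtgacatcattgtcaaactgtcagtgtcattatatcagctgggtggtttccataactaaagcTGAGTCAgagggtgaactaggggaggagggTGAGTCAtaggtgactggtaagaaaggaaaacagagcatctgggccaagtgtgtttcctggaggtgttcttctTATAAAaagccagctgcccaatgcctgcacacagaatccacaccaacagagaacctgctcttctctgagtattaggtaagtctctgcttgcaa

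The AP-1 letters stood in 6 of 8 Sprr genes, in 4 of 6 early genes, in 1 of 21 late genes (Lor) and in 1 of 10 S100A genes. Of all 32851 promoters of this length, 5.2% held them, and of the 53 member promoters 26.4% did. Counted by gene, 12 of 46 members (26.1%) did. The matching member promoters include more than 1 start of Dmkn and the neighbouring Sprr2 genes, so they are not independent of one another. None of the 14 Lce genes held the AP-1 letters, although Lce levels were among those with the widest spread over the arrays. The TATA letters stood in all 8 Sprr genes and in 22 of 46 members. Counted by promoter, 41.5% of the member promoters held them, against 13.6% of all promoters. The C/EBP letters stood in 9 of 46 members, and in 20.8% of the member promoters against 10.8% of all promoters. No match of 1 motif overlapped a match of another. Control 2 exceeded control 1 by a median of 5.31 for the 12 members with the AP-1 letters and of 4.77 for the 34 without. A match is a description of these letters only.

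Within the Sprr2 genes, which lie in a row and differ little in sequence, an AP-1 match fell at nearly the same place in each of 5, between 193 and 198 bases before the start. Sprr2k held another match at 182 bases, which begins inside the end of its printed window and is not marked there. Windows of 31 bases are shown because their genes did not share 1 level: control 2 minus control 1 was 5.202 for Sprr2d, 6.15 for Sprr2h, 6.19 for Sprr2i and 3.96 for Sprr2k, but 0.99 for Sprr2f, which stayed below the olfactory reference. Capitals mark the AP-1 match nearest to the far end of each promoter.
Sprr2d: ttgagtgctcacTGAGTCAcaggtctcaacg
Sprr2f: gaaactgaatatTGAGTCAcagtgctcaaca
Sprr2h: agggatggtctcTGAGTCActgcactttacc
Sprr2i: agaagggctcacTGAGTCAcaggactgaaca
Sprr2k: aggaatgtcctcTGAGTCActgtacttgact

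Of the 3 transcription factors, Trp63 encodes p63, which keratinocytes of the basal layer require. It was at 4.15 in control 1, 8.37 in control 2, 4.55 in DIO 1 and 4.84 in DIO 2. By this probe set, the brightest on average, only control 2 lay above the olfactory reference. A second probe set of Trp63 was at 4.97, 5.51, 5.08 and 5.17, above the reference on every array and with control 2 the highest by far less. The remaining 2 had control differences of 0.42 and 0.76. Grhl3, which drives barrier formation, was at 7.54, 8.85, 7.38 and 7.29 in control 1, control 2, DIO 1 and DIO 2. Ovol1, a zinc finger repressor that acts as cells leave the basal state, was at 7.80, 8.51, 6.64 and 6.43 on the same arrays. For Grhl3 and Ovol1 both DIO arrays lay below both controls, so the order seen in most members did not hold for them.

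Among early genes, Krtdap, a secreted peptide of the suprabasal layers, was at 7.34 in control 1, 13.96 in control 2, 9.70 in DIO 1 and 11.80 in DIO 2. Its signal in control 2 was 98.3 times that in control 1 and 4.47 times that in DIO 2. Ivl, involucrin, was at 4.96, 10.75, 6.37 and 7.77 in the same order of arrays. Calml3, a calmodulin-like protein of epithelia, was at 4.67, 10.55, 5.73 and 7.17. By these probe sets the 3 genes spread over the arrays as widely as late genes did. A second probe set of Ivl spread less, at 5.77, 9.09, 6.12 and 6.61, with a control difference of 3.32.

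The other early genes spread less. The plakins Evpl (envoplakin) and Ppl (periplakin), which anchor the envelope to keratin filaments and the cell border, were at 7.95, 10.42, 7.72 and 8.14 and at 8.30, 11.61, 8.58 and 9.07. Tgm1, the membrane-bound transglutaminase, was at 7.46, 10.24, 8.33 and 8.85. Dmkn, dermokine, was at 10.37, 13.63, 10.53 and 11.29. In all 4 control 2 stood clear of the other arrays, while DIO 2 exceeded control 1 by 0.19 for Evpl, 0.78 for Ppl, 1.39 for Tgm1 and 0.92 for Dmkn. Sbsn, suprabasin, was high on every array, from 12.90 to 13.68, close to the top of the scale at 14.56. A dimmer probe set of Sbsn was at 9.41 in control 1, 11.55 in control 2, 9.23 in DIO 1 and 9.58 in DIO 2. Its control difference was 2.14. Tgm5 ranged only from 4.78 to 5.08.

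Late genes gave the widest spread. Lor, loricrin, the main glycine-rich protein of the envelope, was at 6.81 in control 1, 13.76 in control 2, 9.48 in DIO 1 and 11.58 in DIO 2. Hrnr, hornerin, was at 4.19, 11.82, 6.68 and 8.81. Flg, filaggrin, which bundles keratin filaments, was at 4.08, 10.26, 5.01 and 7.40. By these probe sets DIO 2 lay above DIO 1 by more than 2 in each, and both DIO arrays lay between the controls. A second probe set of Lor had a control difference of 6.37. Its dimmest one, at 4.33, 5.07, 4.70 and 4.62, had a control difference of 0.73, and DIO 2 did not exceed DIO 1 there.

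The Lce genes behaved alike. Of 15 measured, 14 were highest in control 2 and the same number followed the order of most members. Lce1c was at 3.64, 11.29, 6.55 and 8.46 in control 1, control 2, DIO 1 and DIO 2. In control 1 it lay below the olfactory reference, as did Lce1d, Lce1f, Hrnr and Flg, so the sizes of their control differences are not ranked. Lce3f was at 5.88, 12.76, 8.23 and 10.47, Lce1d at 4.10, 11.29, 6.79 and 8.42, and Lce1f at 4.10, 10.91, 6.35 and 8.56. A dimmer probe set of Lce1f had a control difference of 3.14. Lce1g and Lce1l were the exceptions in level, with highest values of 4.98 and 3.43. For 9 late genes the probe set used ends in s_at or x_at, the manufacturer's mark for probes that can match several transcripts, so levels of Lce neighbours are not independent.

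A few late genes showed no such spread. Tgm3, a soluble transglutaminase of upper epidermis and hair, was at 5.87, 5.87, 5.86 and 5.84, though its other probe set had a control difference of 1.24. Casp14, the caspase of cornification, was at 6.08, 6.23, 6.25 and 6.51 by the probe set brighter on average, but the other one had a control difference of 3.64. Cnfn, cornifelin, and Rptn, repetin, followed the pattern of Lor by the probe sets used, with control differences of 6.56 and 6.31. In control 1 that of Rptn was at 4.47, below the olfactory reference. Dimmer probe sets of Rptn, below the reference on every array, had control differences of 0.12 and 0.26.

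The Sprr genes, short repeated proteins that bridge the envelope and are also made by stressed epithelia, were all highest in control 2 and lowest in control 1. Sprr1a was at 7.78 in control 1, 13.19 in control 2, 9.63 in DIO 1 and 10.29 in DIO 2. Sprr1b was at 5.12, 11.93, 7.38 and 8.98, and Sprr3 at 5.64, 11.38, 7.08 and 7.72. The remaining rule-named genes Sprr2d, Sprr2h and Sprr2i reached 10.42, 10.32 and 10.34 in control 2. The DIO arrays differed by a median of 0.64 in this class, against 1.69 in the late class, while the control differences had similar medians of 5.41 and 5.92.

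The S100A proteins are small calcium-binding proteins, and only some of them belong to epidermis. S100a8 and S100a9 form calprotectin, which stressed keratinocytes and neutrophils make. S100a9 was at 5.11 in control 1, 11.54 in control 2, 5.36 in DIO 1 and 7.64 in DIO 2, and S100a8 at 4.52, 8.60, 4.53 and 5.14. Of 11 measured myeloid markers, between 3 and 5 lay above the olfactory reference on an array. The leukocyte genes Ptprc and Itgam were at no more than 4.11 and 3.85 on any array. Ltf and Cd14, the widest in range of the 11, were above the reference on every array, at 6.17 to 7.22 and 5.10 to 5.94. Of the 11, 8 were highest in DIO 2 and 1 in control 2. S100a14 and S100a16, found in many epithelia, were at 5.48, 10.79, 7.33 and 7.82 and at 7.90, 12.18, 9.13 and 9.61.

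The other S100A genes differed less between the controls than S100a8, S100a9, S100a14 and S100a16 did. S100a6 was at 11.72, 13.04, 12.39 and 12.49, with a control difference of 1.32. S100a10, the annexin A2 partner, was at 11.999, 12.66, 12.31 and 12.25, with one of 0.66. S100a1 and S100a13 were at 9.92 to 10.56 and 10.42 to 10.57, and control 2 was the lowest array for both. The class thus had a median control difference of 0.56, with 5 of 12 genes at 1 or more.

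Set against each other, early and late genes differed in where the DIO arrays lay. DIO 2 exceeded control 1 by a median of 3.21 in the late class and 0.92 in the early class, with 18 of 22 and 4 of 9 genes at 1 or more (1.31% of all genes). DIO 1 exceeded control 1 by a median of 1.37 in late and 0.28 in early genes, with 14 of 22 and 3 of 9 genes at 1 or more (0.709% of all genes). Control 2 exceeded DIO 2 by nearly the same amount in both, 2.32 and 2.28, with 18 of 22 and 7 of 9 genes at 1 or more (4.68% of all genes). For the Sprr genes these medians were 2.08 for DIO 2 over control 1 and 2.90 for control 2 over DIO 2. For the transcription factors they were −0.24 and 2.08.

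Between the controls, the late median exceeded the early one by 2.66. In control 1 the median early gene was at 7.46 and the median late gene at 4.83, close to the olfactory reference. A late gene at the reference has no room to be lower, so its difference from control 1 depends on that background. Levels of different probe sets compare only roughly, since signal per molecule differs between them.

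**Figure D3:**
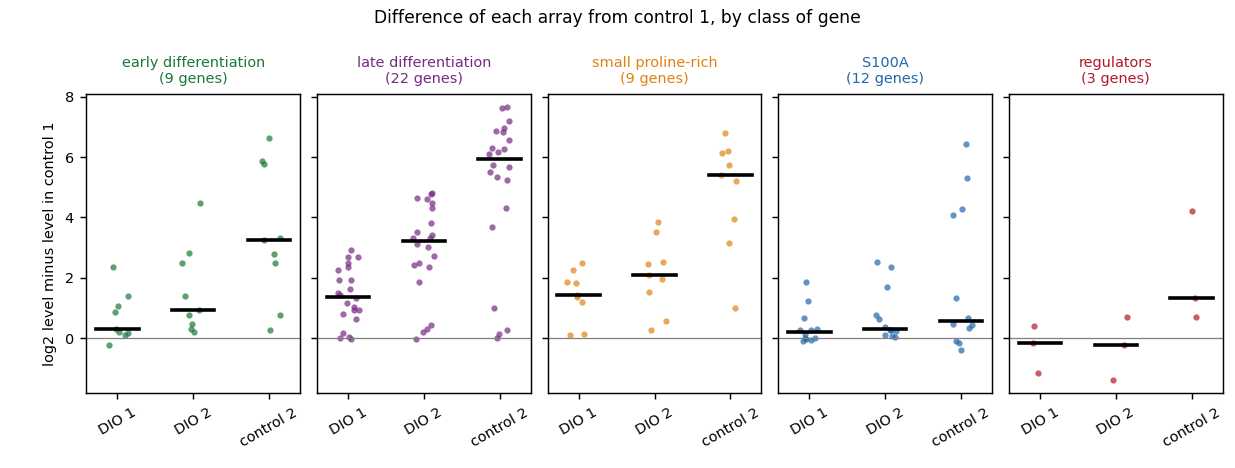
Log2 level on DIO 1, DIO 2 and control 2 minus the level on control 1, for each gene (points) and the class median (bars), in the 5 classes. The late class climbs from 1.37 to 3.21 to 5.92, whereas the early class stands at 0.28, 0.92 and 3.27 and the transcription factors at −0.16, −0.24 and 1.31.

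DIO against control was tested in limma over all 18193 genes with Benjamini-Hochberg adjustment. No member passed an adjusted p of 0.05 (0% of all genes). At an unadjusted p below 0.05, 1 member was lower in DIO (3.32% of all genes) and 0 were higher (3.26% of all genes). The DIO mean was below the control mean for 42 of 55 members (46.7% of all genes), with a median difference of −0.39 against 0.02 over all genes. Both DIO arrays lay below both controls for 3 members (17% of all genes) and above both for 1 (21.4% of all genes). For 43 they lay between the controls, with control 2 the higher (7.42% of all genes, or 24.8% with either control the higher).

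The direction of the group difference rested on which control was kept. Without control 2 the median member difference was 1.47 with 50 of 55 members higher in DIO, and without control 1 it was −3.12 with 50 lower. It was 0.0012 without DIO 1 and −0.999 without DIO 2. With control 2 as the only control, which is assumed to vary like the DIO arrays, 14 members passed as lower in DIO (2.47% of all genes) and 0 as higher (0.187% of all genes). They were 6 Sprr, 3 S100A and 2 early genes and all 3 transcription factors, with Trp63 at −3.67 (limma, adjusted p = 0.0233). In that fit only DIO 1 and DIO 2 give a spread within a group, so passing depends on their distance. The median distance between DIO 1 and DIO 2 was 1.69 in the late class, wider than in the other classes. With control 1 as the only control 0 members passed (0% of all genes), and 29 were higher at an unadjusted p below 0.05 (5.19% of all genes).

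Ovol1 had the smallest p of the members. Its DIO mean was lower by 1.62 ± 0.28 (SE), with an unadjusted p of 0.00397 and an adjusted p of 0.728 in limma. The difference was −1.97 without control 1 and −1.27 without control 2, so its direction held with either control. A second probe set of Ovol1, at 4.56, 5.38, 4.57 and 4.86 in control 1, control 2, DIO 1 and DIO 2, differed by −0.26 ± 0.32, and with both averaged the difference was −0.94. Grhl3 differed by −0.86 ± 0.47 (limma, adjusted p = 0.756), at −1.51 and −0.20 without control 1 and control 2. Evpl differed by −1.25 ± 0.88 but by −0.02 without control 2, and S100a8 by −1.72 ± 1.44 but by 0.32 without control 2. S100a3 differed by −0.23 ± 0.20, below the olfactory reference throughout, and by 0.0045 without control 2.

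The members with a higher DIO mean and the smallest p were close to 0. They were S100a1 at 0.29 ± 0.21, Casp14 at 0.23 ± 0.16, Tgm5 at 0.13 ± 0.15, S100a13 at 0.07 ± 0.13 and S100a5 at 0.09 ± 0.15, and S100a5 turned to −0.0023 without control 2 and to −0.0058 without DIO 2. For the genes that spread most the error was larger than the difference. Lor differed by 0.25 ± 2.52, Krtdap by 0.10 ± 2.41, Ivl by −0.78 ± 2.07, Flg by −0.96 ± 2.30 and Trp63 by −1.56 ± 1.47. Without control 2 these 5 genes were at 3.72, 3.41, 2.11, 2.13 and 0.54, and without control 1 at −3.23, −3.21, −3.67, −4.06 and −3.67. Without DIO 2, Lor was at −0.80 and Krtdap at −0.95, and without DIO 1 Flg was at 0.23. A group effect of several log2 units could not be seen in them at 2 arrays per group. With probe sets averaged, Trp63 was at −0.42. Of 13 members with several probe sets, 5 had probe sets of opposite sign, Lor, Casp14 and Trp63 among them.

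**Figure D4:**
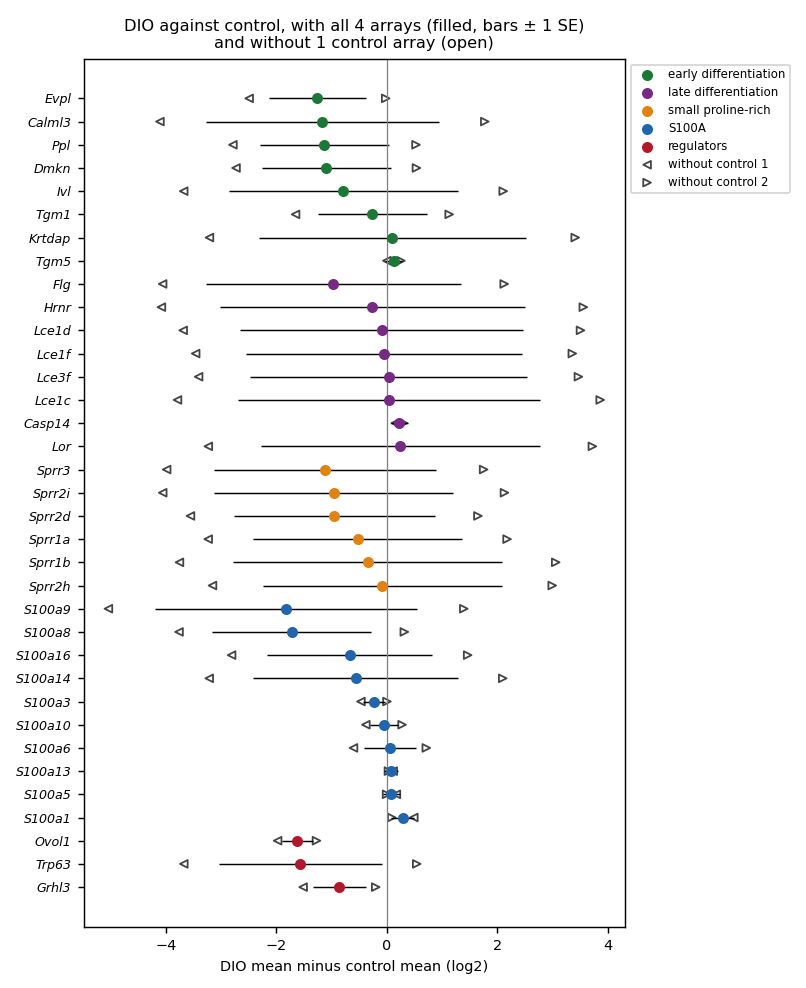
DIO mean minus control mean in log2 units for the 35 members named by rule, with all 4 arrays (filled, bars ± 1 SE from limma, 2 arrays per group) and with control 1 or control 2 left out (open triangles). Most genes lie on the negative side without control 1 and on the positive side without control 2, while Ovol1 and Grhl3 stay negative in both.

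Other genes of the epidermal programme were read from fixed lists. In the 6 lists that follow, 0 genes passed in limma, and at an unadjusted p below 0.05 Aloxe3 and Itgb4 were lower (3.32% of all genes) and Tfap2c was higher (3.26% of all genes). Of 14 stratified keratins, 13 were highest in control 2, and 11 followed the order of most members. Krt1 and Krt10, the keratin pair of suprabasal cells, were at 5.77, 12.96, 7.79 and 9.89 and at 6.995, 13.96, 9.48 and 11.22 in control 1, control 2, DIO 1 and DIO 2. Krt6b was at 4.62, 12.47, 6.92 and 8.49, and Krt13 at 5.09, 11.06, 6.33 and 7.10. The suprabasal pair was thus spread like Lor and Krtdap.

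Among genes of the basal layer, Krt5 was at 6.73, 11.89, 7.55 and 8.34, and Krt15 at 7.84, 12.74, 8.89 and 9.10. Col17a1, a collagen of hemidesmosomes, was at 5.86, 9.36, 5.65 and 5.54. Over the 7 basal markers, Trp63 included, control 2 exceeded DIO 2 by a median of 3.53, while DIO 2 differed from control 1 by a median of −0.08, from −1.21 to 1.61. The order of most members held for 3 of the 7, Krt5 and Krt15 among them. Control 2 was the highest array for 6 of the 7.

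All 13 genes of the barrier list, 12 of lipid handling and the protease Asprv1, were highest in control 2, with a median control difference of 2.93. Elovl4, which makes very long fatty acids, was at 4.59, 10.46, 5.79 and 7.07, Asprv1, which processes filaggrin, at 7.32, 13.00, 8.79 and 10.32, Lipk at 4.22, 9.81, 4.82 and 6.39, and Cers3, a ceramide synthase, at 3.73, 9.17, 5.53 and 6.04. Of 14 desquamation proteases and inhibitors, 12 were highest in control 2. Spink5, a protease inhibitor of the granular layer, was at 4.08, 10.11, 5.76 and 6.90, and Klk5, a protease it blocks, at 5.25, 9.84, 4.93 and 6.42. Serpinb2 and Serpinb3a reached 9.86 and 10.06 in control 2. Of 11 junction genes of stratified epithelia 9 were highest in control 2, with Pkp1, a desmosomal plaque protein, at 6.13, 11.59, 7.43 and 8.03.

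Of 16 transcription factors of epidermis, 10 were highest in control 2, and the median control difference was 0.64. Grhl1 was at 7.66, 10.19, 7.87 and 8.39, Zfp750 at 6.73, 8.68, 6.68 and 6.70, Notch1 at 8.43, 10.32, 8.37 and 8.27, and Prdm1 at 7.23, 8.28, 6.78 and 6.72. In the last 3 both DIO arrays lay below both controls, as in Ovol1 and Grhl3, but the gaps differed in size. DIO 2 minus control 1 was −0.02 for Zfp750, −0.17 for Notch1 and −0.50 for Prdm1. It was −1.37 for Ovol1 and −0.24 for Grhl3. Both DIO arrays lay below both controls for 5 of the 16 (17% of all genes).

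Markers of other cells also differed between the arrays. All 10 pluripotency genes were lower in control 2 than in control 1, by a median of −0.92, and lower in DIO 2 than in DIO 1, by −1.40. Of all 18193 genes, 11301 and 9381 were lower in these pairs. The 10 genes were all highest in DIO 1, above control 1 by a median of 0.64, and the members were above it there by 0.93. Control 2 minus DIO 2 had a median of −0.24 in the 10 genes and of 2.35 in the members. Of 8 fibroblast markers 6 were highest in control 2, with Col3a1 at 7.52, 10.29, 7.35 and 8.46. Simple epithelial markers differed between the controls by a median of −0.03, and trophoblast markers by −0.69. The mean 18S ribosomal RNA signal was 12.60, 12.65, 12.30 and 11.96 and the 3′ minus 5′ signal of beta-actin 0.21, 0.33, 0.25 and 0.30 in control 1, control 2, DIO 1 and DIO 2. Their part in the result was not tested.

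Along chromosome 3 the genes beyond the ends of the complex mostly showed no such difference between the controls. The 41 members there had a median control difference of 5.34, and the 14 members on other chromosomes one of 2.63. The differences ran from −0.40 to 7.65 in the 41 and from −0.0007 to 6.62 in the 14. No Sprr, Lce or S100A gene was among the 14, so chromosome and class cannot be told apart here. Among 10 measured genes beyond each end of the complex, 1 of 20 (Them5) was highest in control 2 and the median was −0.23. Inside it, the S100A genes at its ends mixed high and low differences, while the stretch from Lor to Rptn was high nearly throughout. Them5 was named after the values were seen, and the region was read by gene order only.

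**Figure D5:**
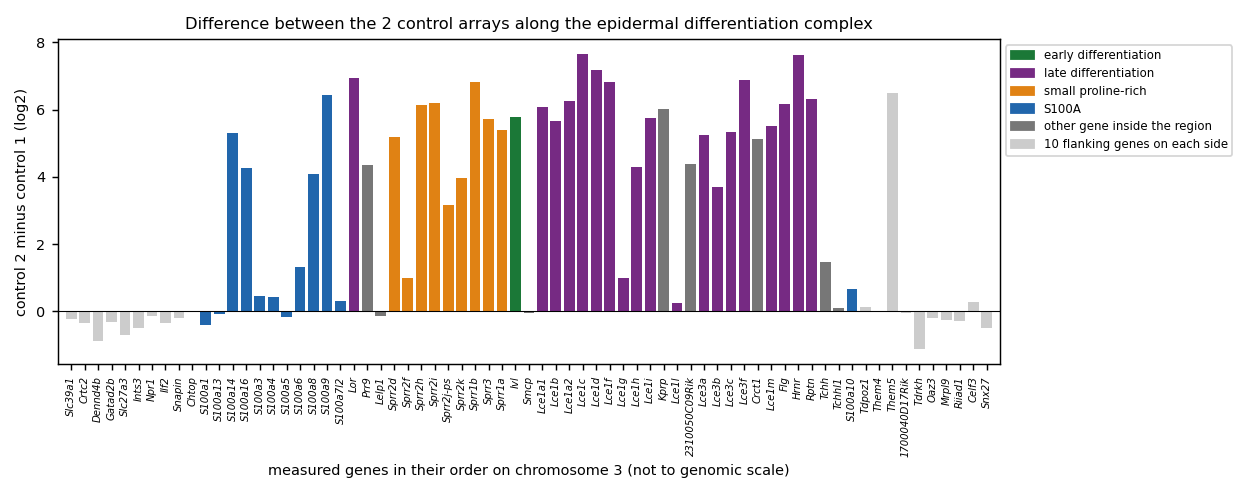
Control 2 minus control 1 in log2 units for measured genes in their order on chromosome 3, coloured by class, with other genes of the region in dark grey and 10 flanking genes on each side in light grey. Bars of 3 or more run from Lor to Rptn with few gaps, and of the flanking genes Them5 alone reaches that height.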

How the data were processed

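The members, classes, lists and tests were chosen with earlier results of these data known. The authors deposited 1 table of log2 levels per probe set; how it was background-corrected, normalized and summarised is unstated in the labels, and the log2 scale was read from the values, which ran from 2.59 to 14.56. Of 45101 probe sets, 64 manufacturer controls served only as quality measures. Gene names follow GEO's platform table, where 932 probe sets carry several symbols and 9160 are not listed. For each of 18193 genes the brightest probe set on average was kept, from those with its symbol alone, and no dim gene was filtered out. All 55 members matched a RefSeq table of GRCm38.p6 by gene number.

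The group test (DIO minus control, 2-sided) used lmFit and eBayes of limma 3.58.1 in R 4.3.3. The code was also run on simulated data with independent noise of the same spread in both groups. The members do not share that setting, so the simulation does not check the test for them. Single arrays were compared by their values, without a test. Genes were named by rule: up to 6 members per class with the widest range over the arrays and above the olfactory reference, 5 per direction with the smallest p, up to 4 of each other list by range, and Trp63, Ivl, Lor, Flg, Krtdap and S100a8; other names were added after their values were seen. The number of arrays limits the precision. Alternatives were quantile normalization, centring on the median, leaving out the dimmest 40% of genes, averaged or single probe sets, trended and robust eBayes, array weights, other class borders, a block on the mouse number and leaving out each array.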

Additional observations from a re-analysis of the deposited data

How the results depend on the processing

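Leaving out 1 array gave 0 to 14 members past the threshold and a median DIO minus control difference from −3.12 to 1.47. The 0 calls, the 47 members highest in control 2 and the medians of both array pairs kept their direction under quantile normalization, centring, averaged or single probe sets and without dim genes. The median control difference was then 3.48 to 5.51, and the DIO 2 minus DIO 1 median 0.48 to 1.32. Late minus early was 2.16 to 3.0006 between the controls over its alternatives. Between the groups it turned from 0.49 to −0.030 without Evpl and Ppl. The filter by mean level was added after seeing the data. With the mouse number as a replicate block, 0 members passed; the labels do not say that the number pairs mice, and with 2 pairs that cannot be read from the data. Centring moved the median difference of all genes from 0.02 to 0.11, their split at an unadjusted p below 0.05 from 594 higher and 604 lower to 1072 and 327, and the members from 13 higher and 42 lower to 18 and 37. After centring, Lce1d turned to 0.0043, Lce1f to 0.043, S100a10 to 0.043 and Sprr2h to 0.014, and Casp14 turned to −0.40 with probe sets averaged, where its other probe set enters. Of 35 named members, 28 changed sign without at least 1 array. Over the arrays left out in turn, the DIO minus control difference ranged as follows: Calml3 −4.10 to 1.78, Dmkn −2.73 to 0.54, Flg −4.06 to 2.13, Hrnr −4.08 to 3.56, Ivl −3.67 to 2.11, Krtdap −3.21 to 3.41, Lce1c −3.79 to 3.86. The ranges went on with Lce1d −3.68 to 3.51, Lce1f −3.46 to 3.36, Lce3f −3.40 to 3.47, Lor −3.23 to 3.72, Ppl −2.78 to 0.53, S100a10 −0.38 to 0.28, S100a14 −3.21 to 2.10. Further ranges were S100a16 −2.81 to 1.47, S100a3 −0.47 to 0.0045, S100a5 −0.0058 to 0.18, S100a6 −0.60 to 0.72, S100a8 −3.76 to 0.32, S100a9 −5.04 to 1.40, Sprr1a −3.23 to 2.18. The last were Sprr1b −3.75 to 3.06, Sprr2d −3.55 to 1.65, Sprr2h −3.15 to 2.996, Sprr2i −4.05 to 2.13, Sprr3 −3.98 to 1.75, Tgm1 −1.65 to 1.13, Trp63 −3.67 to 0.54. The cause was not tested.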

Other observations

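Genes inside the complex that the rule did not take followed the members in part. Of 8 such measured genes, 6 were highest in control 2. Crct1 was at 7.86, 12.99, 8.999 and 10.11 in control 1, control 2, DIO 1 and DIO 2, Kprp, a keratinocyte proline-rich protein, at 3.98, 9.998, 5.51 and 6.97, and Prr9 at 3.55, 7.90, 4.41 and 4.87. Lelp1 and Smcp, the second a sperm mitochondrial protein, differed between the controls by −0.14 and −0.04. Them5, a thioesterase gene beyond the end of the complex, was at 4.08, 10.59, 4.68 and 6.30. These genes were named after their values were seen.

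Probe sets left out for naming several genes included 3 for Sprr2a. The first of these was at 7.69, 13.10, 9.76 and 9.80 and the second at 7.47, 12.58, 9.28 and 9.15, while the third was dim, at 3.46, 4.12, 3.70 and 4.21. The probe set that names S100a11 with a pseudogene was at 12.96, 13.59, 13.20 and 13.34.

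Among endothelial markers, Sox17 was at 5.86 in control 1, 8.22 in control 2, 5.98 in DIO 1 and 5.63 in DIO 2. Tek was at 5.05, 6.69, 4.87 and 4.21 on the same arrays. Both were highest in control 2 and, among the 16, the widest in range. Next in range, Pecam1 was at 7.34, 6.83, 7.20 and 6.05 and Vwf at 6.37, 5.48, 5.53 and 5.35, both highest in control 1. Of the 16, 6 were highest in control 2, and the median control difference was 0.12.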
